A study of Mus musculus with 4 samples.

Results

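The HoxC complex is the row of 9 genes on mouse chromosome 15 that runs from Hoxc13 through Hoxc12, Hoxc11, Hoxc10, Hoxc9, Hoxc8, Hoxc6 and Hoxc5 to Hoxc4. Meis binding in the complex and its flanks was described from regions whose summit, the base of highest signal, lies between 102.6 and 103.25 Mb of chromosome 15 in the mm9 genome. This window of 650 kb held 36 of the 21338 forelimb (FL) regions and 32 of the 16987 hindlimb (HL) regions. The window was set by position along the chromosome. The rule that set it also names a high site near Gpr84, so that site was known beforehand.

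The study examined Meis genome occupancy in wild-type C57BL/6 limb buds at E10.5 (36 somites). FL and HL buds each gave 1 ChIP library, precipitated with a pair of anti-Meis antibodies used together, and 1 input library of chromatin taken before precipitation, so there were 4 libraries in all. Each library came from about 500 pooled limbs and was read from one end over 50 bp. There was no replicate of either limb. The values therefore carry no error between replicates, the limbs were not tested against each other, and differences between them describe these libraries. Whole buds were used, and binding in fewer cells cannot be told apart from weaker binding per cell.

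Meis1 and Meis2 are homeodomain proteins of the TALE class that bind DNA alone or together with Pbx and Hox proteins, and in the limb bud they mark the proximal domain. Hox genes are expressed in an order that follows their order in the complex, and the Hoxc13 end holds the posterior genes. Hoxc10 and Hoxc11 are known as genes of the HL, whereas Hoxc4 and Hoxc5 belong to the anterior end, which is active further forward in the body.

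Fold enrichment over input, p and q are the values of the authors' peak caller for each summit. Where a region held several summits, the largest fold and the smallest p and q were taken for it, and q is the p after the adjustment for multiple tests made by the caller. Positions are given in mm9, counted from 1, and also as the distance from the start of the short Hoxc4 transcript (chromosome 15, 102864826). On this scale, which is negative on the Hoxc13 side, the window extends from -264.8 to 385.2 kb. Genes, exons and introns were placed by their distance from the same start in the GRCm38 annotation, because the annotation used was of that build. The spacing could be compared where a start was known in both builds. It was equal to the base for Hoxc5, Ankrd33 and Dnajc22 and differed by 1 bp for Copz1, 7 bp for Krt5, 50 bp for Smug1 and 174 bp for Gpr84. RefSeq starts differed from those in mm9 by 0 bp for Gpr84, -23 bp for Copz1 and 5332 bp for Smug1. For Scn8a, the nearest annotated start differed by -19073 bp from the start known in mm9, and the reason was not tested. Scn8a lies between Ankrd33 and Dnajc22, whose spacing was equal to the base.

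The sequences that could be placed beside the binding came from microRNA genes and from promoters. Mir196a-2 lies between Hoxc10 and Hoxc9 and Mir615 lies in the Hoxc5 intron, and each has a Meis region close by. Their mature sequences in RefSeq (GRCm38.p6, plus strand) are shown with the seed, bases 2 to 8, in capitals. They lie at chr15:102973365-102973386, chr15:102973401-102973422, chr15:103014926-103014947 and chr15:103014969-103014990.
mmu-miR-196a-5p: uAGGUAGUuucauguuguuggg
mmu-miR-196a-2-3p: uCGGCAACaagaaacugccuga
mmu-miR-615-5p: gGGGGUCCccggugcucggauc
mmu-miR-615-3p: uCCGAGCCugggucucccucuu

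Promoters of 14 genes in the window, 20 sequences in all, were in the RefSeq table used, each from 250 bases before a start to 50 after it. Of the 9 Hoxc genes only Hoxc4 was among them. By distance from the Hoxc4 start, an FL region reached the promoter of 3 genes and an HL region that of 2, all of them predicted genes on the minus strand, opposite to the Hoxc genes. Gm30528 has 4 promoter sequences, and the one shown (chr15:103060506-103060805, minus strand) lies under an FL region. The promoter of Gm41406 (chr15:103289571-103289870, minus strand) lies in a Copz1 intron, and a region of each limb covers part of it. Capitals mark matches to the motifs searched on both strands, TGACAG for Meis, TGATNNAT for Hox with Pbx and TTTATNG for posterior Hox proteins.
Gm30528: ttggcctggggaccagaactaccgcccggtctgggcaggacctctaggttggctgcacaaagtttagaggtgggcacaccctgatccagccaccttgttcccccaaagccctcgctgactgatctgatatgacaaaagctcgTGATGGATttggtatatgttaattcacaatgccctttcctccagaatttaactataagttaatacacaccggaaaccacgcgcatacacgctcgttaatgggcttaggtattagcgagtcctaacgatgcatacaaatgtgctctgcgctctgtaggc
Gm41406: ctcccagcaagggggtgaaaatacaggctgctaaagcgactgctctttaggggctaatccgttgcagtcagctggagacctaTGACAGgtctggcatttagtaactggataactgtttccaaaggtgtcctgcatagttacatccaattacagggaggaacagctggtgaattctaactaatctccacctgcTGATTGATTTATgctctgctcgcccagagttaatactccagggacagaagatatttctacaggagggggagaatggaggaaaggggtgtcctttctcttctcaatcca

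Gm30528 holds 1 match to TGATNNAT and none to the other motifs. Gm41406 holds TGACAG at bases 83 to 88 and 2 matches to TGATNNAT, at bases 193 to 200 and 197 to 204, which share 4 bases. As placed by distance, the TGACAG match lies outside the FL region. The second TGATNNAT match lies partly outside the HL region. The promoter of Gm36878, reached by a region of each limb at Hoxc9, lies mostly over a Hoxc9 exon and held 0 matches. The Hoxc4 promoter, which lies under no region of either limb, also held 0. Over the 20 promoters of the window, TGACAG occurred in 2, TGATNNAT in 3 and TTTATNG in 1. Among all 32851 promoters of the table the shares were 19.2%, 8.85% and 10.9%. A match describes the letters of the sequence and was not tested as a binding site.

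Most high Meis regions lay between the Hoxc9 start and the Hoxc4 start or in the flank beyond Hoxc4. Few and low ones lay over Hoxc13 to Hoxc10. In FLs, 11 of the 36 regions had a q of 0.05 or less (30.6%, 95% Wilson interval 18.0 to 46.9%), against 17.4% of all FL regions. In HLs, 9 of 32 regions did (28.1%, 15.6 to 45.4%), against 10.1% of all HL regions. These intervals cover counting error only, and the high site near Gpr84 was known when the window was set. FL folds in the window ranged from 1.86 to 11.8 with a median of 2.84, and the median of the whole FL list was 2.78. HL folds ranged from 2.01 to 18.6 with a median of 3.02, against 2.78 in the whole HL list. Among regions with a q of at most 0.05, the median FL fold was 6.99 in the window and 4.83 in the whole list, and the median HL fold was 6.14 and 4.93. Thus most members resembled an average region of their list, and the window also held a small set of high ones.

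The density of regions was set beside that along all chromosomes. The window held 5.54 FL and 4.92 HL regions per 100 kb. Over the extent of the chromosomes in the lists the densities were 0.811 and 0.646. For regions with a q of at most 0.05, the densities were 1.69 in FLs and 1.38 in HLs, against 0.142 and 0.0654 over the genome. The window includes the high site near Gpr84 that was known beforehand, so these densities describe it and do not test enrichment. FL regions covered 9130 bp of the window and HL regions covered 7939 bp. The median width was 160.5 bp in FLs (166 bp in the whole list) and 207 bp in HLs (132 bp in the whole list).

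**Figure D1:**
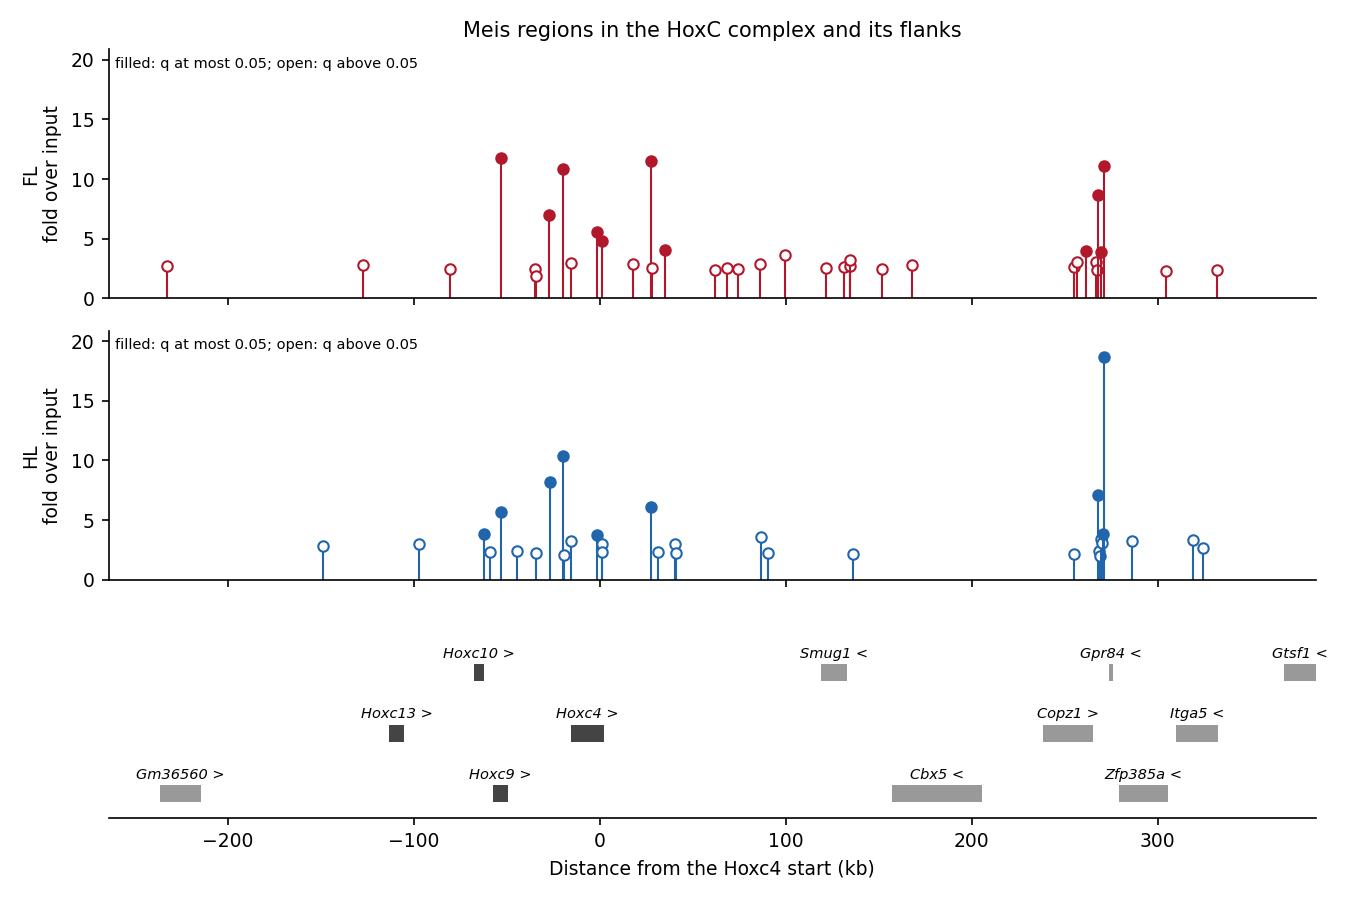
Fold over input of each Meis region in FLs (top) and HLs (middle) against the distance of its summit from the Hoxc4 start in kb, with genes at the bottom and arrows for their strand. Filled points have a q of at most 0.05; these 11 FL and 9 HL regions lie from -62.25 kb, beside Mir196a-2, to 35.01 kb beyond Hoxc4 and again from 261.59 to 271.02 kb, between a Copz1 intron and Gpr84.

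The 6 regions with the highest fold in FLs and the 6 with the highest fold in HLs were the same 6 sites, paired with each other. Of these, 3 lie between Hoxc9 and Hoxc5, 1 lies beyond Hoxc4, and 2 lie between Copz1 and Gpr84. The order differed between the limbs. In FLs the Hoxc9 site came first, followed by the site beyond Hoxc4, a Gpr84 side site and the Hoxc5 site. In HLs that Gpr84 side site came first, followed by the Hoxc5 site, and the Hoxc9 site was the lowest of the 6.

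The posterior part of the complex, from the Hoxc13 start to the Hoxc10 end, spans 50.8 kb and had 1 region in each limb. The FL region (chr15:102784209-102784334) lay 591 bp upstream of the Hoxc11 start, with a fold of 2.46 and a q of 1. The HL region (chr15:102767302-102767740) lay in the coding sequence of Hoxc12, with a fold of 2.97 and a q of 1. These regions did not overlap, and neither passed the q cutoff. Hoxc13 had no region of either limb within 10 kb of its start. The nearest was 13.95 kb away in FLs (fold 2.79) and 16.11 kb away in HLs (fold 2.97). Near Hotair, a noncoding RNA gene between Hoxc12 and Hoxc11, the 1 FL region within 10 kb was the Hoxc11 one, and HLs had 0.

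Between the Hoxc10 end and the Hoxc9 start, regions were found in HLs only, at the cutoff of the lists. The HL region at chr15:102802378-102802634 had a fold of 3.81 and a q of 0.0327. Its summit lies 1209 bp before the Mir196a-2 hairpin, which encodes the microRNA whose seed is shown above, and 5.34 kb from the Hoxc10 start. No FL region overlapped it. A weaker HL region, 1.76 kb upstream of the Hoxc9 start, had a fold of 2.30 and a q of 1. In FLs the nearest summit to the hairpin was 7685 bp away, at the Hoxc9 site.

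From the Hoxc9 start to the Hoxc4 start, 57.4 kb held 7 FL and 8 HL regions, and 4 in each limb had a q of at most 0.05. These 4 formed 4 pairs at shared positions. The median fold in this stretch was 5.59 in FLs and 3.51 in HLs.

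At Hoxc9 the FL region (chr15:102811383-102811823) had the highest FL fold of the window, 11.8 (q = 5.02e-27), and ranked 81 by fold among the FL regions. The HL region over it (chr15:102811449-102811644) had a fold of 5.68 (q = 1.22e-06) and ranked 491 among the HL regions. The FL fold was 2.07 times the HL fold, and the summits were 12 bp apart. Both summits lie in the noncoding first part of an exon of Hoxc9, 534 bp in FLs and 522 bp in HLs before the coding sequence. They are 4.09 kb in FLs and 4.10 kb in HLs from the annotated start of the gene, and the start of Gm36878, on the opposite strand, is placed there as well.

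No region of either limb lay over Hoxc8 itself. An HL region 935 bp upstream of its start had a fold of 2.42 and a q of 1, with no FL region over it. A weak pair lay 9.35 kb downstream of the start in FLs and 9.28 kb in HLs, with folds of 1.86 and 2.29 and a q of 1 in both limbs. The FL member of this pair had the lowest fold of any FL region in the window.

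The site upstream of Hoxc6 was similar in both limbs. The FL region (chr15:102837592-102838017) reached a fold of 6.99 (q = 1.23e-18), and the HL region (chr15:102837572-102837993) reached a fold of 8.17 (q = 1.05e-16). The summits were 18 bp apart and lay 2288 bp in FLs and 2270 bp in HLs upstream of the Hoxc6 start. By fold, the HL region ranked 127 in its list and the FL region ranked 571.

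In the intron of Hoxc5, the FL region (chr15:102844776-102845307) reached a fold of 10.9 (q = 2.34e-25), and the HL region (chr15:102844792-102845273) reached a fold of 10.4 (q = 4.79e-26). The summits were 5 bp apart. They lie 235 bp in FLs and 240 bp in HLs before the Mir615 hairpin. The HL region held a second summit with a fold of 2.55. A further HL region with a q of 1 had its summit 112 bp past the start of the hairpin, and no FL region overlapped it. Of the Hoxc sites with a q of at most 0.05 in both limbs, this one was the closest to equal.

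Hoxc4 has a long transcript that starts at -15.46 kb, upstream of the short one. A pair of weak regions lay over the long start, with the FL summit 79 bp upstream (fold 2.95, q = 1) and the HL summit 26 bp downstream (fold 3.25, q = 0.676). At the short start there were regions on both sides. The FL region 1474 bp upstream (chr15:102863141-102863508) reached a fold of 5.59 (q = 4.08e-08), whereas the HL region over it (chr15:102863039-102863490) reached a fold of 3.77 (q = 0.0114). In the Hoxc4 intron 949 bp downstream, the FL region (chr15:102865675-102865888) reached a fold of 4.84 (q = 0.000319). The HL region over it, with its summit 2 bp away, had a fold of 3.04 (q = 0.514). That FL region passed the q cutoff and the HL region did not, and the difference between them was not tested. An HL region without an FL region over it lay in the coding sequence of Hoxc4, with a fold of 2.30 and a q of 1.

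**Figure D2:**
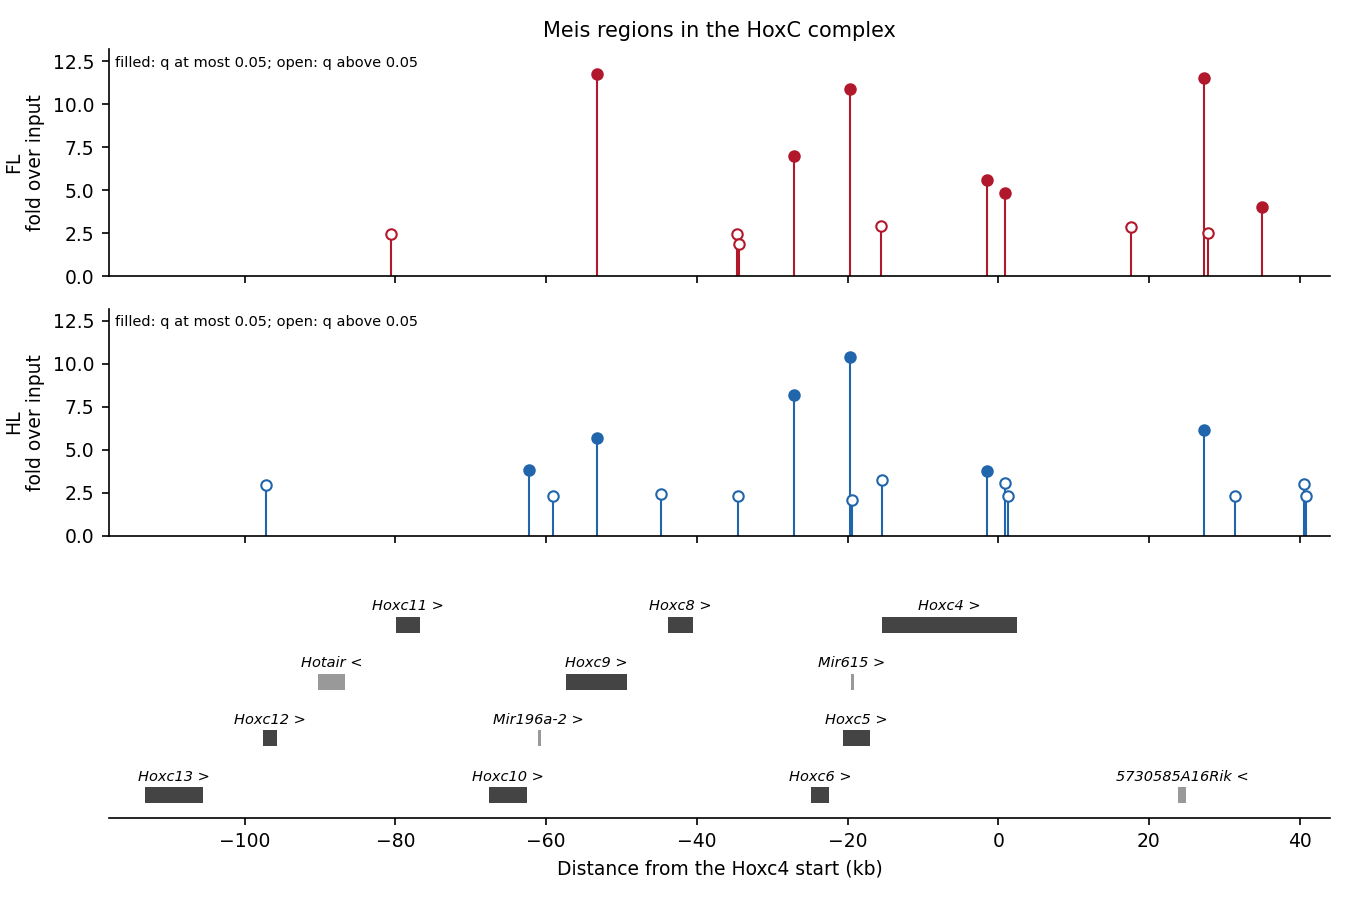
Fold over input of Meis regions over the HoxC complex in FLs (top) and HLs (middle) against the distance from the Hoxc4 start in kb, with genes at the bottom; filled points have a q of at most 0.05. Filled points begin at the Mir196a-2 region (fold 3.81) in HLs and at the Hoxc9 site (fold 11.8) in FLs, and Hoxc13 to Hoxc11 carry open points only.

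Counted within 10 kb of each start, 6 of the 9 Hoxc genes had an FL region and 7 had an HL region. Over all 1988 genes placed in mm9 the shares were 34.9% and 28.2%. These genes were placed through their distances to FL summits of a set of regions listed as common to both limbs, so they are no random sample of genes for either limb. A region with a q of at most 0.05 lay near 5 genes in FLs, Hoxc9, Hoxc8, Hoxc6, Hoxc5 and Hoxc4. In HLs it lay near these and near Hoxc10, the last through the region beside Mir196a-2, whose q of 0.0327 would not pass a cutoff of 0.01. Nor would the only such HL region near Hoxc4, with a q of 0.0114. The shares of all placed genes with a region at a q of at most 0.05 were 9.86% in FLs and 5.53% in HLs. Neighbouring genes share regions in this count, since the Hoxc9 site is also within 10 kb of Hoxc8 and the Hoxc5 site within 10 kb of Hoxc6. The 4 genes from Hoxc13 to Hoxc10 had 0 FL regions past the q cutoff within 10 kb.

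The flank beyond Hoxc4 is the longest stretch of the window, 385.2 kb, and held 26 FL and 20 HL regions. Of these, 7 in FLs and 4 in HLs had a q of at most 0.05. They lay within 35.01 kb of the Hoxc4 start or from 261.59 to 271.02 kb, near Gpr84, and all others in the stretch had a q above 0.05.

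The FL region 27.29 kb beyond the Hoxc4 start (chr15:102890797-102892269) was 1473 bp wide, which ranked 7 by width among the FL regions. It held 5 summits with folds of 2.55, 2.38, 4.27, 2.54 and 11.5, in order from the Hoxc4 side. The last of these had a q of 1.78e-24 and the third a q of 0.00345. In HLs a region of 233 bp (chr15:102891970-102892202) lay over the last summit, with a fold of 6.14 (q = 1.56e-08), its summit 39 bp from the FL one. The FL fold was 1.88 times the HL fold. No HL region was listed over the other 4 FL summits, and the Gm30528 promoter shown above lies under that part of the FL region. It was the only FL region of the window with more than 1 summit (1 of 36, against 6.14% of all FL regions), while 4 of the 32 HL regions had more than 1 (against 4.15%).

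Further out, the FL region 35.01 kb beyond the Hoxc4 start (chr15:102899758-102899921) had a fold of 4.05 (q = 0.00565) without a counterpart in HLs. HL regions without an FL region over them lay at 31.4, 40.55 and 40.83 kb, and their folds were 2.31, 3.01 and 2.30, each with a q of 1. The nearest coding gene to all of these is Hoxc4.

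Between these regions and Copz1, both limbs had regions with a q above 0.05 only. Over both flanks and the complex, of the 16 genes that were looked up by name beside the Hoxc genes, 11 start inside the window, at the outermost annotated start. An FL region lay within 10 kb of 7 of these starts and an HL region within 10 kb of 5, against 34.9% and 28.2% of all placed genes. A region with a q of at most 0.05 lay near 3 of them in each limb, Mir196a-2, Mir615 and Gpr84, against 9.86% and 5.53%. The count for Mir196a-2 includes the Hoxc9 site and that for Mir615 the Hoxc5 site, which were already counted for the Hoxc genes. The high site near Gpr84 was known when the window was set, so these 3 genes are not separate cases. Smug1, which encodes a DNA glycosylase, had 3 FL regions and 1 HL region within 10 kb of its outermost start, and 2 and 0 within 10 kb of the start known in mm9. With starts known in mm9 used for Smug1, Copz1 and Gpr84, a setting chosen after seeing the data, the counts of genes with a region were 7 for FLs and 4 for HLs. The starts of Cbx5, Hnrnpa1, Nfe2 and Copz1 had 0 regions of either limb within 10 kb. These encode a heterochromatin protein, an RNA-binding protein, a transcription factor of blood cells and a coat protein of transport vesicles. The only overlap between the limbs from 40.83 kb to the Copz1 start lay 86.4 kb beyond Hoxc4, with a fold of 2.92 in FLs (q = 1) and 3.62 in HLs (q = 0.392). Regions were absent from the lists over long distances, up to 119.4 kb in HLs, from 135.9 to 255.3 kb beyond Hoxc4.

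A group of regions lay from the Copz1 introns to Gpr84. In FLs 8 regions fell between 255.2 and 271.02 kb beyond Hoxc4, and 4 had a q of at most 0.05. In HLs 7 regions fell between 268.13 and 271.01 kb, and 3 had such a q. The HL region 255.3 kb beyond Hoxc4, in a Copz1 intron at the Gm41406 promoter shown above, stood apart from these. It had a fold of 2.16 and its FL counterpart a fold of 2.68, each with a q of 1.

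The highest site of this group, in the intron of the noncoding RNA gene Gm49482, was the highest HL region of the window. The HL region (chr15:103135473-103136122) had a fold of 18.6 and a q of 1.13e-82, and ranked 2 by fold and 1 by p among the 16987 HL regions. The FL region (chr15:103135548-103136144) had a fold of 11.1 and a q of 3.9e-57, and ranked 106 by fold and 7 by p among the FL regions. The HL fold was 1.67 times the FL fold, and the summits were 5 bp apart. Gpr84, which encodes a receptor for fatty acids on immune cells, is transcribed toward the site, and its 3′ end lies 2824 bp from the FL summit and 2829 bp from the HL summit.

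The neighbouring site, also in the Gm49482 intron and 268.13 kb beyond Hoxc4, was closer to equal. The FL region (chr15:103132830-103133278) had a fold of 8.64 (q = 3.86e-19), and that of the HL region (chr15:103132818-103133367) was 7.14 (q = 6.85e-13). The summits were 3 bp apart. Between this site and the highest one, an FL region (chr15:103134329-103134647) had a fold of 3.90 (q = 0.00931). It was overlapped by 2 HL regions with folds of 3.43 (q = 0.676) and 3.12 (q = 1).

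Regions past the q cutoff that lay in only one of the lists were also found here. In FLs, a region in a Copz1 intron (chr15:103126310-103126551) had a fold of 3.95 (q = 0.00488) with no HL region over it. In HLs, a region directly beside the highest site (chr15:103135270-103135407) had a fold of 3.88 (q = 0.0352) with no FL region over it. Together with the FL region 35.01 kb beyond Hoxc4 and the HL region beside Mir196a-2, these make 2 FL and 2 HL regions of the window that passed the cutoff and had no counterpart. Their folds, from 3.81 to 4.05, were near the lowest among regions that passed it, 3.90 in FLs and 3.77 in HLs.

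**Figure D3:**
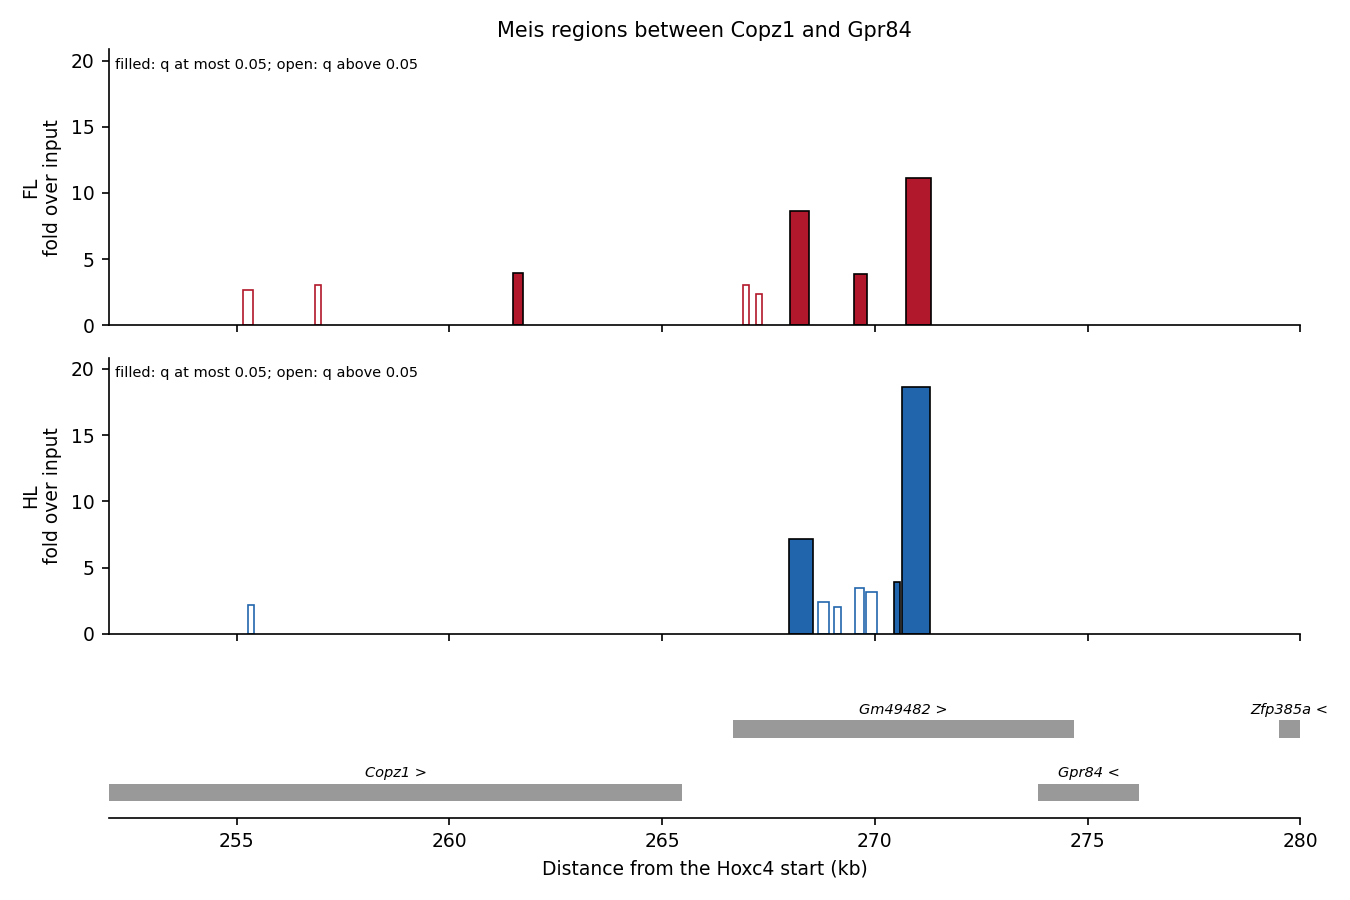
Fold over input of Meis regions between Copz1 and Gpr84 in FLs (top) and HLs (middle), each bar as wide as its region, against the distance from the Hoxc4 start in kb; filled bars have a q of at most 0.05 and genes are drawn at the bottom. The highest bar stands at 271.02 kb in FLs (fold 11.1) and at 271.01 kb in HLs (fold 18.6).

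Beyond Gpr84, FLs had regions at 304.8 and 332.2 kb, with folds of 2.26 and 2.35, and HLs had regions at 286.1, 319.3 and 324.3 kb, with folds of 3.29, 3.33 and 2.68. None of these overlapped, and none passed the q cutoff. They lay in or at the coding genes Zfp385a and Itga5, the latter an integrin subunit that binds fibronectin. The FL summit at 332.2 kb was close to the Itga5 start, where the spacing between the builds was not checked. On the Hoxc13 side, the flank of 151.5 kb held 2 FL regions and 1 HL region, with folds from 2.69 to 2.87 and a q of 1.

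At the limits of the window the members were weak. The first FL and HL regions inside the limit beyond Hoxc13 had folds of 2.69 and 2.87, 31.8 and 115.7 kb from it. The nearest ones outside had folds of 2.47 and 2.09, 16.3 and 239.4 kb from it, and a q of 1. At the other limit, the last regions inside had folds of 2.35 and 2.68. An FL region with a fold of 2.22 and a q of 1 was the next outside, 83.4 kb away. The HL list held 0 regions further along the chromosome.

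Of the 36 FL regions, 13 overlapped an HL region by at least 1 bp (36.1%, 95% Wilson interval 22.5 to 52.4%), against 22.6% of all FL regions. Of the 32 HL regions, 14 overlapped an FL region (43.8%, 28.2 to 60.7%), against 29.0% of all HL regions. Overlap went with height. Among the regions that passed the q cutoff, 9 of 11 in FLs and 7 of 9 in HLs overlapped a region of the other limb. For comparison, the shares in the whole lists were 67.0% and 89.3%. The median fold was 5.59 for shared and 2.59 for unshared FL regions, and 3.70 and 2.41 for HL regions. The highest fold of an unshared region was 4.05 in FLs and 3.88 in HLs.

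The 13 shared FL regions gave 13 pairs with an HL region. Summits of a pair were a median of 18 bp apart, from 2 to 137 bp, and within 50 bp in 9 pairs. Over all 4813 pairs of the lists the median was 30 bp. In the 7 pairs with a q of at most 0.05 in both limbs, the largest distance was 39 bp and the median 12 bp, against 17 bp over all 1200 such pairs. The weak pairs at Hoxc8, at the long Hoxc4 start, at 86.4 kb and in the Copz1 intron had summits 61 to 137 bp apart.

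**Figure D4:**
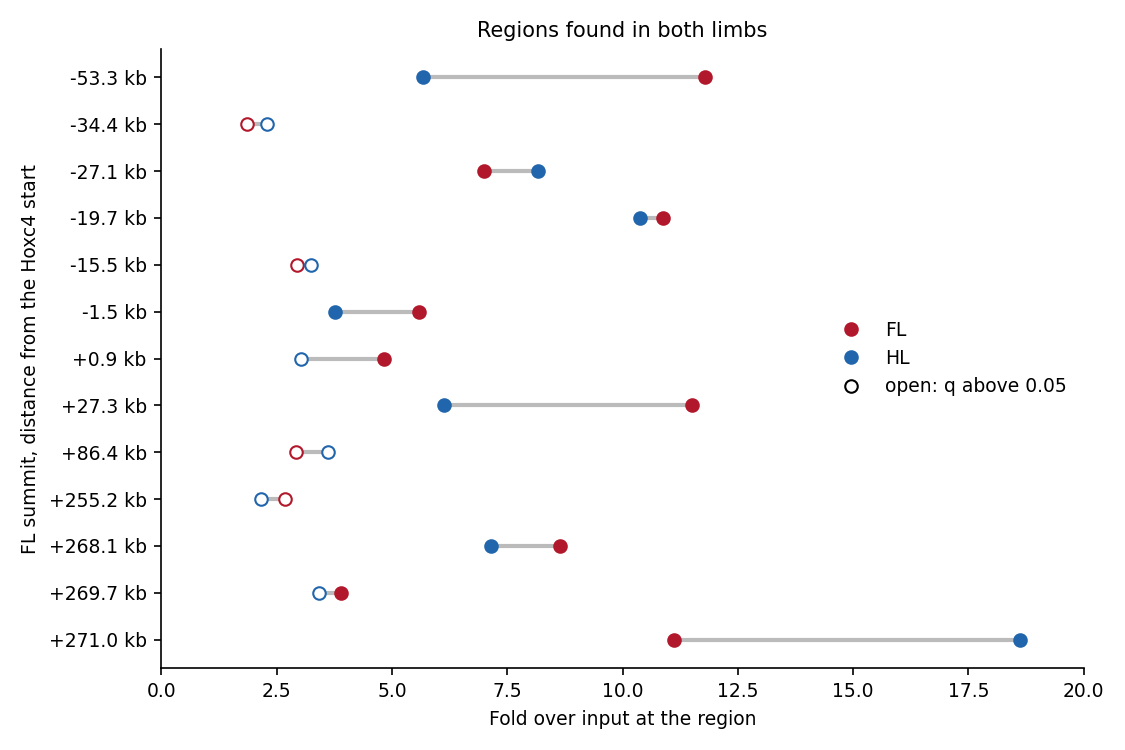
Fold over input in FLs and HLs at each of the 13 sites found in both limbs, in order along the chromosome and named by the distance of the FL summit from the Hoxc4 start; filled points have a q of at most 0.05, and a grey line joins the limbs. The widest gaps are at -53.28 kb (Hoxc9, higher in FLs), at 27.29 kb (higher in FLs) and at 271.02 kb (higher in HLs).

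The fold was higher in FLs in 8 of the 13 pairs and higher in HLs in 5, and over all pairs it was higher in FLs in 62.1%. The median log2 ratio of FL to HL fold was 0.19 (interval from order statistics -0.30 to 0.67), and that of all 4813 pairs was 0.17. The interval reflects the spread among these 13 neighbouring pairs of the same libraries and gives no error for the difference between limbs. A ratio of at least 1.5 toward FLs was found in 3 of 13 pairs, against 22.2% of all pairs, and toward HLs in 1 of 13, against 7.65%. The shares in the window are thus near those of the whole lists.

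The largest ratios toward FLs were at Hoxc9 (folds of 11.8 and 5.68, log2 ratio 1.05), at the site 27.29 kb beyond Hoxc4 (11.5 and 6.14, log2 ratio 0.91) and in the Hoxc4 intron (4.84 and 3.04, log2 ratio 0.67). The largest toward HLs were at the highest Gpr84 side site (11.1 and 18.6, log2 ratio -0.74), at 86.4 kb (2.92 and 3.62, log2 ratio -0.31) and downstream of Hoxc8 (1.86 and 2.29, log2 ratio -0.30). Among the 1200 pairs past the q cutoff in both limbs, Hoxc9 ranked 65 and the site beyond Hoxc4 ranked 105 toward FLs. The highest Gpr84 side site ranked 38 toward HLs. Measured from the median of all pairs, the log2 ratios were 0.88 at Hoxc9, 0.74 at 27.29 kb, 0.50 in the Hoxc4 intron and -0.91 at the Gpr84 side site. On that scale the Hoxc5 site changed sign, from 0.07 to -0.10, and the site upstream of Hoxc6 moved from -0.23 to -0.39. High sites within the same window thus had ratios in both directions.

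**Figure D5:**
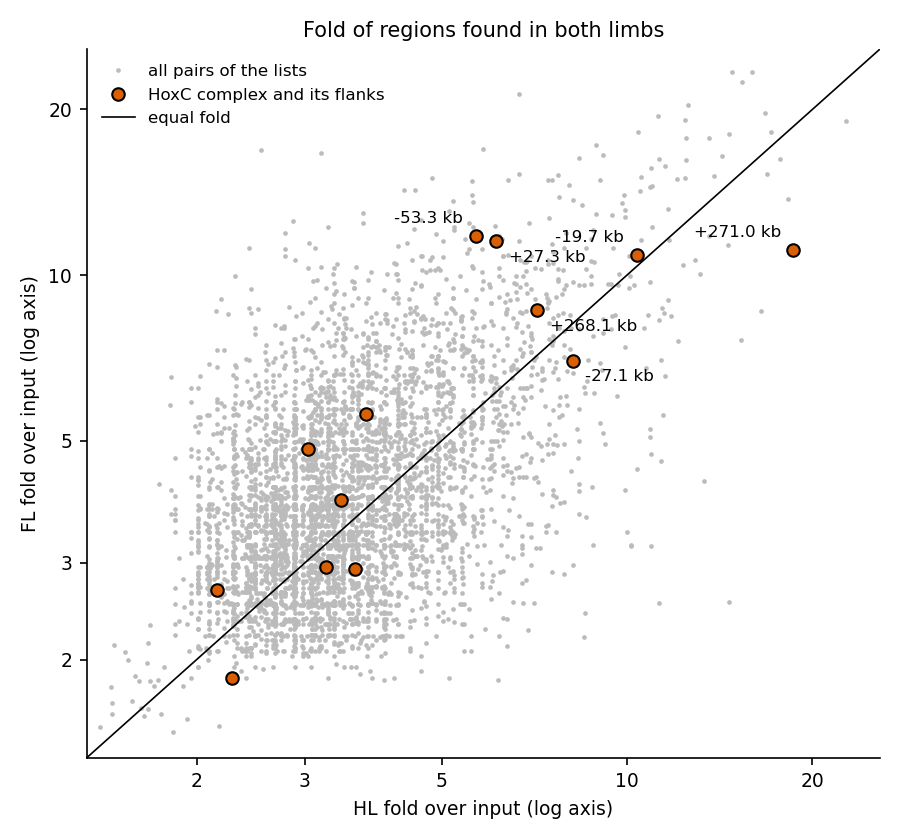
FL fold over input against HL fold over input, both on log axes, for all 4813 pairs of overlapping regions (grey) and the 13 pairs of the HoxC window (orange), with the line of equal fold. The Hoxc9 site and the site at 27.29 kb lie above the line, and the site at 271.02 kb lies below it.

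HoxA and HoxD, which are also active in limb buds, were counted over the same groups of genes, with boundaries placed by distance from Hoxa5 and from Hoxd12. The Hoxa9 start differed by 0 bp between the annotations and the Hoxa2 start by 582 bp. No other HoxD start was at hand to check the spacing. From the group 13 start to the group 9 start, HoxC had 1 FL and 3 HL regions in 55.9 kb, HoxA had 4 and 2 in 33.5 kb, and HoxD had 4 and 8 in 29.4 kb. In this stretch the highest fold was 2.46 in FLs and 3.81 in HLs for HoxC, 3.24 and 2.42 for HoxA, and 11.6 and 5.45 for HoxD. From the group 9 start to the group 4 start, HoxC had 7 FL and 8 HL regions in 57.4 kb, HoxA had 11 and 17 in 35.6 kb, and HoxD had 5 and 4 in 24.3 kb. There the highest FL fold was 11.8 in HoxC, 5.83 in HoxA and 4.51 in HoxD, and the highest HL fold was 10.4, 4.50 and 4.004. HoxC thus had fewer regions per length than HoxA between groups 9 and 4, and its highest regions had higher folds. In HoxB, where Hoxb4 and Hoxb5 starts differed by 1583 and 917 bp between the annotations, the first stretch (77.1 kb) had 2 FL and 3 HL regions and the second (46.8 kb) had 6 and 3. The highest fold there was 3.63 in FLs and 5.64 in HLs over the first and 3.22 and 4.39 over the second. Within 10 kb of the 30 genes of HoxA, HoxB and HoxD, an FL region was found at 28 and an HL region at 28, with a q of at most 0.05 at 22 and 21. The shares of all placed genes were 34.9% and 28.2%, and 9.86% and 5.53% with such a q. Neighbouring Hox genes share regions in this count, so the 30 genes are not separate cases.

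Of the 9 TALE genes on the list, 6 could be placed in mm9. An FL region lay within 10 kb of 5 of them and an HL region within 10 kb of 4, and 4 had a region with a q of at most 0.05 in each limb. The shares over all placed genes were 34.9% and 28.2%, and 9.86% and 5.53% with such a q. Meis2 had the highest fold among them, 8.50 in FLs and 6.36 in HLs. The 5 highest FL folds and the 4 highest HL folds of the HoxC window, 8.64 to 11.8 and 7.14 to 18.6, were above these values. The HoxC folds come from the whole window of 650 kb, whereas only regions within 10 kb of a start were counted for the TALE genes.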

How the data were processed

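Reads were aligned to mm9 with BWA by the authors. Peaks were called in each limb with MACS2, with its own input as control. The submitters' processing notes also name CASAVA 1.8.2, cutadapt 1.3 and SAMtools. The deposited fold is the ratio of ChIP to local input signal at a summit. The deposited −log10 p and −log10 q, the deposited score and the summit offset also come from the authors' peak caller. The lists extend to a p of 0.022 in FLs and 0.0217 in HLs.

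Summits with equal start and end were counted as 1 region, and FL regions were paired with the overlapping HL region of the highest fold. Positions of gene starts in mm9 follow from peak-to-gene distances in a supplementary list of the study for regions common to both limbs, of which part was at hand. They were kept where all distances to a gene gave the same start within 2 bp, which gave 1988 genes. Only 735 of these had 2 or more distances to compare, and each of the others rests on 1. GENCODE (mouse release 21, GRCm38) gave genes and exons. No coordinate was converted between builds. The rule for named genes and sites took the Hoxc genes, lists of flanking, Hox and TALE genes, the 6 highest regions of each limb, the 3 largest ratios in each direction, regions past the q cutoff without a counterpart, and genes nearest to summits. The members and lists were chosen with earlier results of these data known. Alternatives changed the p, q or fold cutoff, the overlap, the pairing, the unit counted, the length of the lists and the window. No result from simulated data is given here. Computation used Python 3.11.15 (numpy 2.4.6 and pandas 2.3.3), with scipy 1.17.1 for intervals and matplotlib 3.10.9 for plots. Depth per library was not computed here, and peak sequences in mm9 and protein motifs were not analysed here.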

Additional observations from a re-analysis of the deposited data

How the results depend on the processing

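Of 62 values under other settings, 42 stayed within the limits set for them and 20 moved. With p at most 0.0005 in both lists, the window held 15 FL and 17 HL regions, and 60.0% of FL regions overlapped an HL region. FL regions then numbered 4 between Hoxc9 and Hoxc4, 0 between Hoxc13 and Hoxc10 and 11 in the Gpr84 side flank. In HLs the region in the Hoxc12 coding sequence, with a p of 0.000337 from the peak caller, passed this cutoff. With q at most 0.05 in both lists, there were 11 FL and 9 HL regions, and the shares were 63.6% of FL and 77.8% of HL regions. FL regions then numbered 4 between Hoxc9 and Hoxc4, 0 between Hoxc13 and Hoxc10 and 7 in the flank. HL regions numbered 4, 0 and 4 in these stretches, with 1 more between the Hoxc10 end and the Hoxc9 start. These settings leave fewer regions by construction. Requiring a fold of at least 5 as well left 7 FL and 6 HL regions past the q cutoff, and a q of at most 0.01 left 11 and 6. Either setting lost the HL regions beside Mir196a-2 (q = 0.0327) and beside the highest Gpr84 side site (q = 0.0352). Each also lost the HL region upstream of the short Hoxc4 start (q = 0.0114). Hoxc10 and Hoxc4 then had no HL region past the cutoff within 10 kb. In the complex alone, from 10 kb beyond Hoxc13 to the Hoxc4 start, there were 8 FL and 11 HL regions, with 4 and 5 at a q of 0.05 or less, and 75.0% of FL regions overlapped an HL region. The median log2 ratio fell to -0.04 there and with a reciprocal overlap of 50%, so its sign differed between settings. At 6 to 14 pairs a setting, it otherwise ranged from 0.19 to 0.27. Use of the gene starts known in mm9 was chosen after seeing the data, and it left 2 FL and 0 HL regions within 10 kb of Smug1 in place of 3 and 1.

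No paired analysis was possible because each limb had 1 ChIP library. With 1 library per limb the difference between limbs has no error, and which weak regions pass a cutoff depends on depth, so the lack of a listed region in one limb does not show that Meis was not bound there. Regions with a q near 1 make up much of both lists. Distances from genes rest on equal spacing in both builds, which was compared at few genes.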
